A study of Mus musculus with 8 samples.

Results

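CC chemokine ligands are small secreted proteins that guide leukocytes into tissue. The 10 genes described here, Ccl2, Ccl3, Ccl4, Ccl6, Ccl7, Ccl8, Ccl9, Ccl12, Ccl17 and Ccl22, were taken by symbol from a deposited table of 18824 mouse genes. All 10 were present and all 10 passed the filter on low counts. They were measured by bulk RNA sequencing of lung, to ask how the loss of Slc15a3, which encodes an endolysosomal transporter of histidine and small peptides, relates to lung gene expression after bleomycin. Bleomycin is a DNA-breaking drug that injures and scars rodent lung.

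The knockout lungs, KO_BLM, came from Slc15a3-/- mice (n = 4 libraries), and the lungs they were set against, WT_BLM, from wild-type mice (n = 4 libraries). Both groups carried the same injury: mice 8 weeks old were given bleomycin (BLM) into the trachea once, at 2 mg/kg in a volume of 50 µl, and lungs were taken on day 21. Saline-treated lungs were not analysed here, so no value below says what bleomycin itself did. The sources used here state neither strain, sex nor the cells that lost the gene, and do not say that each library came from its own animal. The p-values therefore measure the spread between these libraries, which may be partly technical. Total counts were 17627999 to 18471445 in KO_BLM and 18878835 to 20180831 in WT_BLM. Slc15a3 itself had 8, 5, 18 and 15 counts in KO_BLM replicates 1 to 4 and 935, 1124, 974 and 841 in WT_BLM replicates 1 to 4, so the libraries match their labels. The tissue label was met as well, since Sftpc, the surfactant protein C gene of the alveolar type 2 cell, was among the abundant genes of every library, at 13936 to 21711 CPM in KO_BLM and 4719 to 7287 CPM in WT_BLM (CPM, counts after scaling for library size).

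CC chemokines act through receptors coupled to G proteins on the migrating cell. Ccl2, Ccl7, Ccl8 and Ccl12 belong to the monocyte chemoattractant protein (MCP) group. Ccl2, Ccl7 and Ccl12 engage CCR2 and draw inflammatory monocytes out of the blood, and mouse Ccl8 acts mainly through CCR8. Ccl17 and Ccl22, made by dendritic cells and macrophages, share the receptor CCR4 of type 2 and regulatory T cells. Ccl3 and Ccl4 are the macrophage inflammatory proteins, which draw monocytes and T cells, and Ccl3 binds CCR1. Ccl6 and Ccl9 are macrophage products of the mouse that act on CCR1. In injured lung, monocytes that enter by CCR2 become macrophages, which have been tied to scarring in mice.

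The genes lie in 3 stretches of the genome (RefSeq, GRCm38.p6). The MCP genes lie near one another on chromosome 11, with Ccl11, which is not a member, between Ccl7 and Ccl12. They are Ccl2 from 82035577 to 82037452, Ccl7 from 82045712 to 82047525, Ccl12 from 82101845 to 82103399 and Ccl8 from 82115185 to 82116799. Further along chromosome 11 lie Ccl9 (83572917 to 83578636), Ccl6 (83587886 to 83593087), Ccl3 (83647843 to 83649378) and Ccl4 (83648624 to 83664683). Ccl22 (94745684 to 94751388) and Ccl17 (94809380 to 94812038) are neighbours on chromosome 8. The spans of Ccl3 and Ccl4 overlap by 755 bases on opposite strands, and since the strand setting of the counting is not given, reads in that overlap cannot be assigned with certainty. None of the 50-base stretches of a member's GENCODE M21 protein-coding transcripts occurred in those of another CC ligand (0% shared for each of the 10 genes).

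The following promoter sequences, printed because these neighbours were both called lower (Ccl12 and Ccl8) or had 1 called and 1 not (Ccl17 and Ccl22), were taken from RefSeq, as the 250 bases before the annotated start. Capitals mark matches on either strand to GGG and CC with any 5 bases between them (letters of the NF-kB type), TTC and GAA with any 4 bases between them (letters of the STAT6 type) and TATAAA (the TATA box), which do not overlap one another here. The Ccl17 window ends at a start that lies inside the annotated span of the gene. For Ccl22 the last 94 bases are left out because a GENCODE M21 exon of the gene reaches into them.
Ccl12 promoter, chr11:82101595-82101844, plus strand: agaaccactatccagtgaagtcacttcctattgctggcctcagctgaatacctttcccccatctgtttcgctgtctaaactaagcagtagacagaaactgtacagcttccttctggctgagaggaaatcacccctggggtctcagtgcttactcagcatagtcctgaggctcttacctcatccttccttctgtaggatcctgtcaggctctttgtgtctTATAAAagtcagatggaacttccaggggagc
Ccl8 promoter, chr11:82114935-82115184, plus strand: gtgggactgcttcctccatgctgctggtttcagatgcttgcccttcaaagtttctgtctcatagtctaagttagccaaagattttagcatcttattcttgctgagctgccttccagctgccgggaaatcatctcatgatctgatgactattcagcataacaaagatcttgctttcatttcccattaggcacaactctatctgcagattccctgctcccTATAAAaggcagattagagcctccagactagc
Ccl17 promoter, chr8:94810203-94810452, plus strand: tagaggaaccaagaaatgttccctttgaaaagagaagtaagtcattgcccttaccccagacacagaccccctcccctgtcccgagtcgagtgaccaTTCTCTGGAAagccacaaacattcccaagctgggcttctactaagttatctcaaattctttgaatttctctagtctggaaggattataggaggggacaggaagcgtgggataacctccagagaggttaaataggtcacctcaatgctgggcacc
Ccl22 promoter, chr8:94745434-94745589, plus strand: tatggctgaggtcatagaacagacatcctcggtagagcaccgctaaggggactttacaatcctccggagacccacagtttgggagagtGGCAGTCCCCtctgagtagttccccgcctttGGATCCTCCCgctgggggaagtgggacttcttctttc
Ccl12 and Ccl8 each held 1 TATAAA, beginning 31 bases before the start in Ccl12 and 32 bases before it in Ccl8, and neither of the other motifs. Ccl17 held 1 STAT6-type match, 154 bases before the start, and Ccl22 held 2 NF-kB-type matches, at 162 and 131 bases. Among all 32851 promoter windows of this length, 45.8% held the NF-kB type, 5.85% the STAT6 type and 12.4% TATAAA. Sequences were found for 7 of the 10 genes, of which 2 held the NF-kB type, 1 the STAT6 type and 3 TATAAA. A match describes letters only, and where there is none nothing follows about the factor.

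The MCP ligands were lower in KO_BLM, Ccl2 by more than any other member and Ccl8 by the least. Ccl17 fell too, Ccl4 rose, and Ccl22, Ccl3, Ccl6 and Ccl9 did not pass the test. Across the 10 genes 5 fell and 1 rose at an adjusted p under 0.05 (edgeR quasi-likelihood test, Benjamini-Hochberg over all genes tested). Among all 14746 genes tested, 20.8% were lower and 20.7% higher by the same rule, or 41.5% in either direction. The median log2 fold change (KO_BLM over WT_BLM throughout) was −0.90 over the members and 0.0025 over all tested genes. By group it was −1.90 for the 4 MCP ligands, −0.51 for Ccl17 and Ccl22, and 0.06 for Ccl3, Ccl4, Ccl6 and Ccl9. The KO_BLM and WT_BLM values did not overlap for 4 members with KO_BLM below and 1 member with KO_BLM above, against 20.7% and 20.3% of all tested genes, or 40.9% in either direction. The summed level of 17 macrophage markers was also lower, at 2285 to 5040 CPM in KO_BLM and 8917 to 11029 CPM in WT_BLM, and its part in the ligand levels was not tested. Spp1 (mean 892 CPM in KO_BLM and 4449 CPM in WT_BLM) and Apoe (982 and 2143 CPM) weigh most in that sum. Of the 17 markers, Cd9, Gpnmb and Lyve1 were not called. In whole lung, fewer cells of a type and less RNA per cell cannot be told apart.

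**Figure D1:**
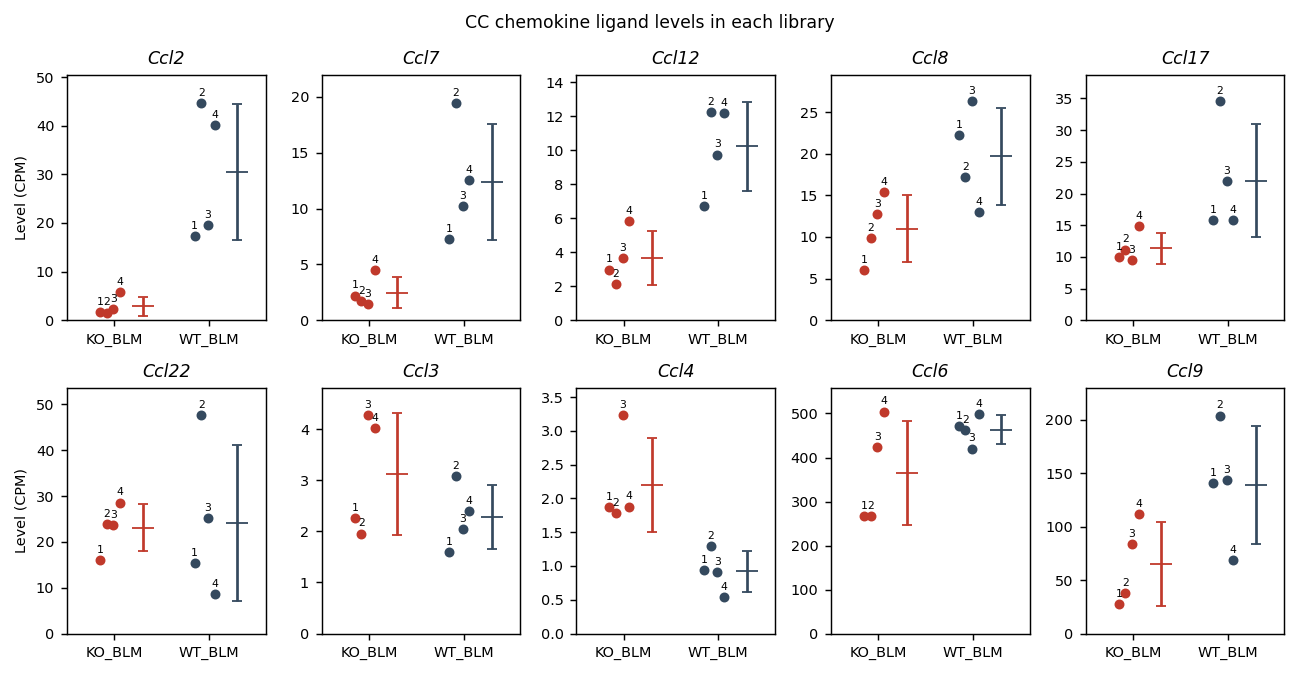
Level of each of the 10 ligand genes in each library (CPM, linear axes from 0), with KO_BLM left of WT_BLM; numbers are replicate numbers and the side bars give mean and SD of 4 libraries. Ccl2, Ccl7, Ccl12 and Ccl17 show no overlap with KO_BLM below, and Ccl4 none with KO_BLM above. WT_BLM replicate 2 is the highest library for Ccl2, Ccl7, Ccl17, Ccl22 and Ccl9. It is also the highest for Ccl12, by a small margin (12.25 CPM against 12.199 CPM in WT_BLM replicate 4).

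Ccl2, the main CCR2 ligand, stood at 1.65, 1.56, 2.29 and 5.84 CPM in the KO_BLM libraries (replicates 1 to 4 in order, here and in later sentences), against 17.3, 44.6, 19.5 and 40.2 CPM in the WT_BLM libraries. The highest KO_BLM library was below the lowest WT_BLM library, and KO_BLM replicate 4 stood above the other 3 of its group. The mean was 2.84 ± 2.03 CPM in KO_BLM and 30.4 ± 14.0 CPM in WT_BLM (SD, n = 4 each), a 10.6-fold fall (log2 fold change −3.41, SE 0.47, adjusted p = 0.000586 by edgeR). Without KO_BLM replicate 4 the log2 fold change was −4.05. The counts behind these levels ran from 28 to 112 in KO_BLM and from 315 to 899 in WT_BLM, with exact Poisson 95% intervals, for counting error only, of 92.2 to 135 for the highest KO_BLM count and 281 to 352 for the lowest WT_BLM count.

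Ccl7, a second CCR2 ligand, was at 2.20, 1.73, 1.46 and 4.48 CPM in KO_BLM, against 7.26, 19.4, 10.2 and 12.5 CPM in WT_BLM. Again the groups did not overlap, and KO_BLM replicate 4 and WT_BLM replicate 2 were the highest of their groups. It fell 4.99-fold (log2 fold change −2.32, SE 0.39, adjusted p = 0.00172 by edgeR). Ccl12, the third CCR2 ligand, found in mouse and not in human, had 2.97, 2.12, 3.65 and 5.84 CPM in KO_BLM and 6.71, 12.2, 9.75 and 12.2 CPM in WT_BLM. The groups were apart by a small margin, between KO_BLM replicate 4 and WT_BLM replicate 1. Its fall was 2.80-fold (log2 fold change −1.48, SE 0.31, adjusted p = 0.00442 by edgeR).

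Ccl8, which in mouse signals mainly by CCR8, changed least of the 4. Its levels were 6.005, 9.82, 12.7 and 15.4 CPM in KO_BLM, against 22.2, 17.2, 26.3 and 13.02 CPM in WT_BLM. WT_BLM replicate 4 lay below KO_BLM replicate 4, so the groups overlapped. Ccl8 was 1.79-fold lower (log2 fold change −0.84, SE 0.29, adjusted p = 0.0408 by edgeR), and this call rests on most single libraries: by edgeR the adjusted p was 0.0715, 0.0989 and 0.0583 without KO_BLM replicates 1, 2 and 3, and 0.0927 and 0.107 without WT_BLM replicates 1 and 3. It was also lost with library totals alone and on FPKM, within a range of 0.00266 to 0.107 over all alternatives.

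**Figure D2:**
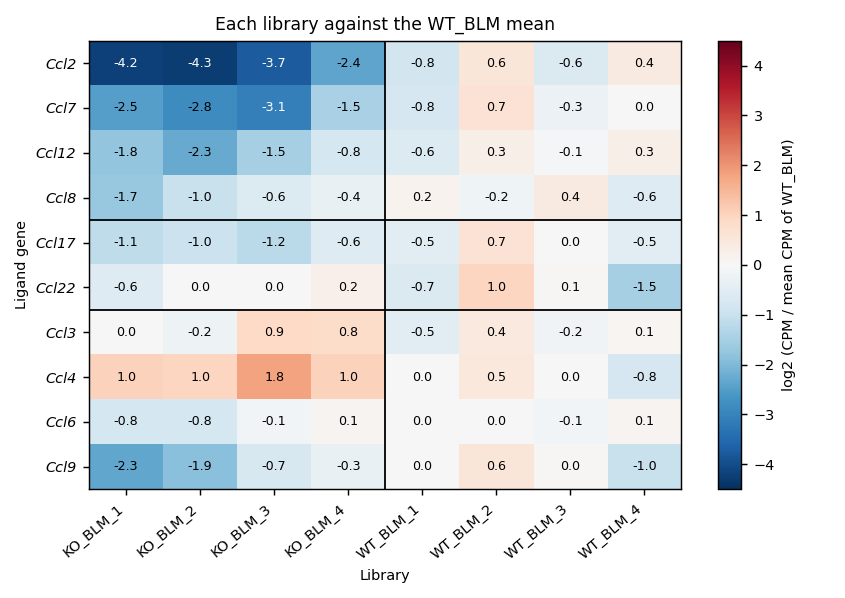
Log2 of each library's CPM over the mean CPM of WT_BLM, for each ligand gene (rows: MCP ligands, CCR4 ligands, then the others) and library (columns, KO_BLM left). Ccl2 ranged from −4.3 to −2.4 in the KO_BLM libraries, and Ccl9 from −2.3 in KO_BLM replicate 1 to −0.3 in KO_BLM replicate 4.

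The 2 CCR4 ligands, neighbours in the genome, gave unlike values. Ccl17 had 9.97, 11.2, 9.49 and 14.9 CPM in KO_BLM, against 15.8, 34.6, 22.0 and 15.8 CPM in WT_BLM. KO_BLM replicate 4 came close to WT_BLM replicates 1 and 4, but no values overlapped. Ccl17 fell 1.94-fold (log2 fold change −0.95, SE 0.26, adjusted p = 0.0160 by edgeR, range 0.00169 to 0.0442 over alternatives). Ccl22 was at 16.1, 23.9, 23.7 and 28.6 CPM in KO_BLM and at 15.4, 47.6, 25.2 and 8.55 CPM in WT_BLM. The KO_BLM values lay within the WT_BLM range, which spanned 5.57-fold from its lowest to its highest library. Its log2 fold change was −0.07 (SE 0.43, adjusted p = 0.908 by edgeR), and the sign turned positive without WT_BLM replicate 2 (0.49) or KO_BLM replicate 1 (0.07), with library totals alone (0.0025) and on FPKM.

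Ccl4, a macrophage inflammatory protein, was the member that rose. Its counts were low, 32 to 62 in KO_BLM and 10 to 26 in WT_BLM, which is 1.87, 1.79, 3.23 and 1.88 CPM in KO_BLM against 0.935, 1.29, 0.911 and 0.545 CPM in WT_BLM. Each KO_BLM library was above each WT_BLM library, with KO_BLM replicate 3 the highest. The rise was 2.37-fold (log2 fold change 1.24, SE 0.32, adjusted p = 0.0125 by edgeR). Ccl3, its neighbour and the other gene of that pair, had 2.26, 1.95, 4.28 and 4.02 CPM in KO_BLM and 1.59, 3.07, 2.04 and 2.40 CPM in WT_BLM. Its groups overlapped and it did not pass the test (log2 fold change 0.46, SE 0.32, adjusted p = 0.267 by edgeR).

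Ccl6 and Ccl9, the CCR1 ligands, divided the KO_BLM libraries into pairs. Ccl6 had 266, 267, 424 and 504 CPM in KO_BLM, against 471, 462, 420 and 499 CPM in WT_BLM. KO_BLM replicates 1 and 2 lay below every WT_BLM library, whereas KO_BLM replicates 3 and 4 lay within or above the WT_BLM range. The log2 fold change was −0.34 (SE 0.20, adjusted p = 0.189 by edgeR), and it was called only without KO_BLM replicate 4 (−0.54, edgeR adjusted p = 0.0346) and by limma-voom (adjusted p = 0.0140). Ccl9 followed the same order, with 27.5, 37.7, 83.5 and 112 CPM in KO_BLM and 140, 204, 144 and 68.7 CPM in WT_BLM. WT_BLM replicate 4 fell among the KO_BLM values. Ccl9 did not pass (log2 fold change −1.09, SE 0.44, adjusted p = 0.0693 by edgeR) but was called without KO_BLM replicate 4 (−1.49, edgeR adjusted p = 0.0262) or WT_BLM replicate 4 (−1.32, adjusted p = 0.0367) and by limma-voom (adjusted p = 0.00192).

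Levels per gene length, as FPKM (counts scaled to library total and gene length), put Ccl6 far ahead of the other ligands. Its mean level was 264 ± 92.4 FPKM in KO_BLM and 313 ± 16.1 FPKM in WT_BLM (SD, n = 4 each), which was 75.1% of the summed mean level of the 10 genes in KO_BLM and 62.8% in WT_BLM. No other member's range reached that of Ccl6 in either group. Ccl9 and Ccl8 came next in both groups, at 22.6 and 22.3 FPKM in KO_BLM and 45.3 and 37.5 FPKM in WT_BLM. Ccl2 took place 8 in KO_BLM, at 3.67 ± 2.73 FPKM, and place 4 in WT_BLM, at 36.6 ± 16.999 FPKM. Below Ccl6, each gene's range overlapped that of the next in the order, except that in WT_BLM Ccl22 (lowest library 4.42 FPKM) stood clear of Ccl3 (highest 3.89 FPKM). Ccl22 took place 4 in KO_BLM and place 8 in WT_BLM, with mean levels of 13.2 FPKM in KO_BLM and 13.2 FPKM in WT_BLM. Ccl2, Ccl12, Ccl7 and Ccl17 ranked below it in KO_BLM and above it in WT_BLM. The FPKM of Ccl17 rest on a length of 1466 bases, though its GENCODE M21 protein-coding transcripts held only 465 different 50-base stretches. A shorter length would raise its FPKM in both groups alike. The places of Ccl17, also against Ccl22, and the sums it enters therefore depend on that length. Summed over the 4 MCP genes, the level was 22.1 to 57.4 FPKM in KO_BLM and 82.9 to 136 FPKM in WT_BLM, without overlap. The sum of Ccl17 and Ccl22 was 15.7 to 27.6 FPKM in KO_BLM and lay inside the 14.5 to 49.9 FPKM of WT_BLM.

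**Figure D3:**
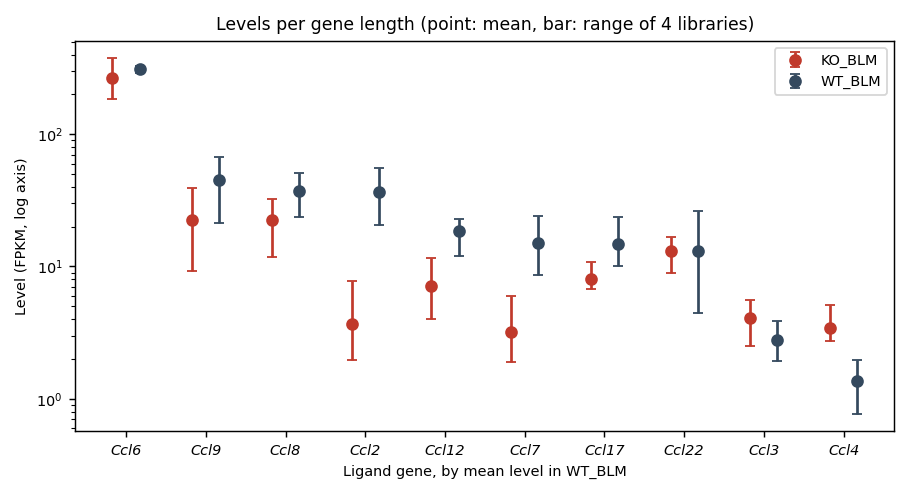
FPKM of the 10 ligand genes on a log axis, ordered by their mean in WT_BLM, with KO_BLM left of WT_BLM; points are means and bars the range of 4 libraries. Ccl6 is the highest in both groups, and Ccl2 lies at 3.67 FPKM in KO_BLM and 36.6 FPKM in WT_BLM.

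Ratios of 2 genes within a library do not depend on library scaling, and were used to set each MCP ligand against each of the 6 other members. Of these 24 ratios, a family chosen after the values were seen, 22 were lower in KO_BLM, and 17 had no overlap between groups and reached the smallest p that 70 arrangements of 4 against 4 allow (two-sided exact permutation test, p = 0.0286, adjusted over 24 pairs 0.0403). Ccl2 reached it against all 6, Ccl7 against 5, Ccl12 against 4 and Ccl8 against 2. The ratio of Ccl2 to Ccl22 counts was 0.103, 0.0653, 0.0967 and 0.204 in KO_BLM, against 1.13, 0.937, 0.773 and 4.70 in WT_BLM. On the log2 scale that ratio averaged −3.22 ± 0.68 in KO_BLM and 0.48 ± 1.19 in WT_BLM (SD, n = 4 each), a difference of −3.70. Against Ccl17, the ratio of Ccl2 differed by −2.63 and that of Ccl7 by −1.48 on the log2 scale, while those of Ccl12 (−0.65, exact permutation p = 0.114) and Ccl8 (0.02, exact permutation p = 0.971) missed the threshold. The macrophage product Ccl9 was the denominator with the fewest such ratios, 1 of 4. Each MCP ligand had been called lower, and of the denominators only Ccl17 had. Lower ratios therefore largely restate the single-gene results and are no separate test of them. The ratios share genes and are not independent, and their adjusted p rests on how many tie at the smallest p. How often ratios of other gene pairs separate the groups was not tested.

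**Figure D4:**
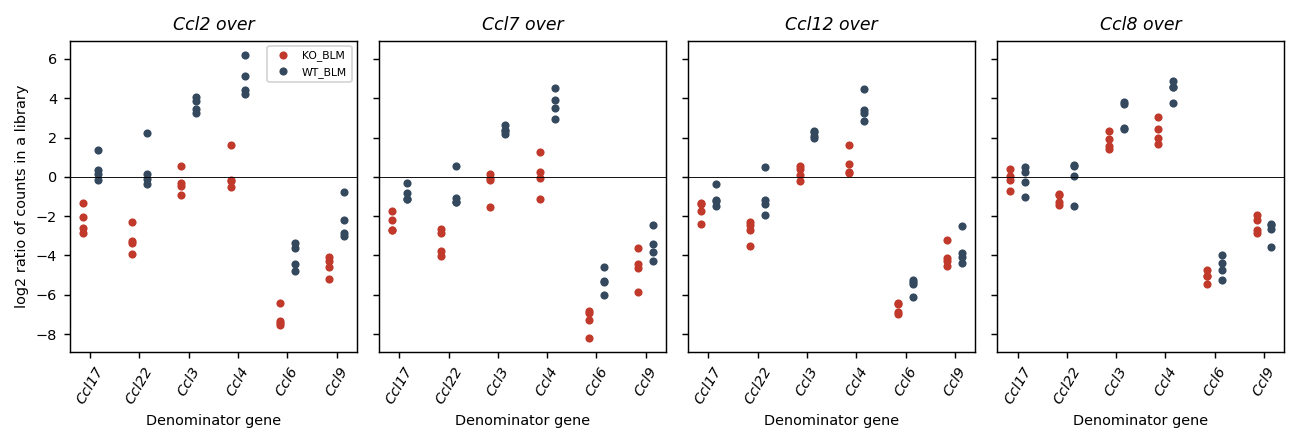
Log2 ratio of the counts of each MCP ligand (panel) to each of the 6 other ligands (x axis) in single libraries, KO_BLM left of WT_BLM; each point is 1 library. The ratios of Ccl2 separate the groups for all 6 denominators, and those of Ccl8 only for Ccl3 and Ccl4.

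Within groups the members did not vary as one. After subtraction of each group mean, Pearson's r of log2 CPM over the 8 libraries was 0.92 between Ccl2 and Ccl12, 0.86 between Ccl2 and Ccl7, and 0.88 between the neighbours Ccl17 and Ccl22. It was 0.82 between Ccl8 and Ccl9, but 0.15 between Ccl2 and Ccl8, 0.01 between Ccl7 and Ccl8 and −0.04 between Ccl2 and Ccl4. These are descriptions of 8 libraries that share depth and cell makeup. By the same measure the gene most like Ccl6 after Map2 (r = 0.99) was Ccr1, the receptor of Ccl6 (r = 0.99). For Ccl22 they were Ezh2 (r = 0.99) and Mgl2, a lectin of dendritic cells and macrophages (r = 0.99), for Ccl9 Spdl1 and the interleukin-1 receptor antagonist Il1rn (r = 0.98 each), and for Ccl2 Actr2 (r = 0.99) and Zeb2 (r = 0.98).

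The other CC ligands went both ways. Of 14 listed, 12 were in the table, 9 were tested, 3 rose and 2 fell, and their median log2 fold change was 0.33. Ccl5, a T cell and natural killer cell product, was at 43.7, 60.2, 97.1 and 30.0 CPM in KO_BLM, against 8.41, 20.5, 14.4 and 8.22 CPM in WT_BLM, and rose 4.47-fold without overlap (log2 fold change 2.16, SE 0.39, adjusted p = 0.00237 by edgeR). In the genome it lies on the side of Ccl9 away from Ccl6, on chromosome 11 from 83525778 to 83530518. Ccl27a rose with a log2 fold change of 1.17 (SE 0.27, adjusted p = 0.00703 by edgeR), though 15% of its 50-base stretches are shared with its copy Ccl27b. Ccl19, a CCR7 ligand, rose as well (1.61, SE 0.47, adjusted p = 0.0212 by edgeR), but not without KO_BLM replicate 4 (adjusted p = 0.0584) or WT_BLM replicate 1 (0.0529).

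Ccl24, an eotaxin acting on CCR3, fell without overlap on few counts, 4 to 7 in KO_BLM and 12 to 31 in WT_BLM (log2 fold change −1.84, SE 0.40, adjusted p = 0.00599 by edgeR). Ccl21a, the lymphatic CCR7 ligand, fell slightly (−0.57, SE 0.20, adjusted p = 0.0419 by edgeR), with 30.8% of its 50-base stretches shared with its copies, and its adjusted p lay between 0.0549 and 0.103 without KO_BLM replicate 1, 2 or 3 or WT_BLM replicate 3 or 4, and its call was also lost with library totals alone and on FPKM. Ccl11, the eotaxin between Ccl7 and Ccl12 on chromosome 11, did not pass the test (−0.67, SE 0.37, adjusted p = 0.163 by edgeR) except without KO_BLM replicate 4 (−1.02, adjusted p = 0.0466) and by limma-voom (adjusted p = 0.0249). Ccl20 (1.23), Ccl25 (0.33) and Ccl28 (−0.12) were not called, with Ccl20 called without KO_BLM replicate 1 (1.56, edgeR adjusted p = 0.0336). Ccl1 had 1 to 5 counts in KO_BLM and 2 to 13 in WT_BLM and was not tested.

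Among 11 receptor genes 9 were tested, of which 1 fell and 1 rose, with a median log2 fold change of 0.31. Ccr1, the receptor of Ccl3, Ccl6 and Ccl9, was at 10.7, 10.3, 23.5 and 30.7 CPM in KO_BLM, against 50.5, 53.0, 49.1 and 58.5 CPM in WT_BLM. The groups did not overlap, and KO_BLM replicates 3 and 4 stood above 1 and 2, as for Ccl6 and Ccl9. Ccr1 fell 2.80-fold (log2 fold change −1.49, SE 0.31, adjusted p = 0.00488 by edgeR). Ccr2, the receptor of Ccl2, Ccl7 and Ccl12, had 41.9, 51.6, 74.2 and 76.3 CPM in KO_BLM and 32.3, 91.2, 56.6 and 28.6 CPM in WT_BLM. WT_BLM enclosed the KO_BLM range and Ccr2 did not pass the test (0.23, SE 0.35, adjusted p = 0.629 by edgeR).

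Ccr4, the receptor of Ccl17 and Ccl22, was low, at 9 to 58 counts in KO_BLM and 3 to 25 in WT_BLM, and missed the threshold (1.59, SE 0.62, adjusted p = 0.0647 by edgeR). It was called without KO_BLM replicate 1 (1.90, edgeR adjusted p = 0.0255) or WT_BLM replicate 2 (2.28, adjusted p = 0.0221), and by DESeq2 (adjusted p = 0.0387). Ccr8 was not called (−0.55, SE 0.47, adjusted p = 0.361 by edgeR). Ccr10, a receptor of Ccl27a and Ccl28, rose (1.59, SE 0.51, adjusted p = 0.0311 by edgeR), but its adjusted p was 0.0680 to 0.0871 without KO_BLM replicate 3 or 4 or WT_BLM replicate 1, 2 or 4, and 0.0689 by limma-voom. Without WT_BLM replicate 2, Ccr6 (1.46, edgeR adjusted p = 0.0312) and Ccr7 (0.86, adjusted p = 0.0146) were called too.

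Atypical receptors take up chemokines without signalling migration, and 3 of the 4 tested genes of this list were called. Ackr4, which removes Ccl19 and Ccl21, rose 7.09-fold (log2 fold change 2.83, SE 0.48, adjusted p = 0.00176 by edgeR). Ccrl2, which presents chemerin, rose 2.11-fold (1.07, SE 0.15, adjusted p = 0.000586 by edgeR). Ackr3, a scavenger of a CXC chemokine, fell 2.88-fold (−1.52, SE 0.13, adjusted p = 4.56e-05 by edgeR). Ackr2, the scavenger of inflammatory CC ligands including Ccl2, was not called (−0.32, SE 0.18, adjusted p = 0.168 by edgeR). Without KO_BLM replicate 1 it was called (−0.49, adjusted p = 0.0364 by edgeR).

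**Figure D5:**
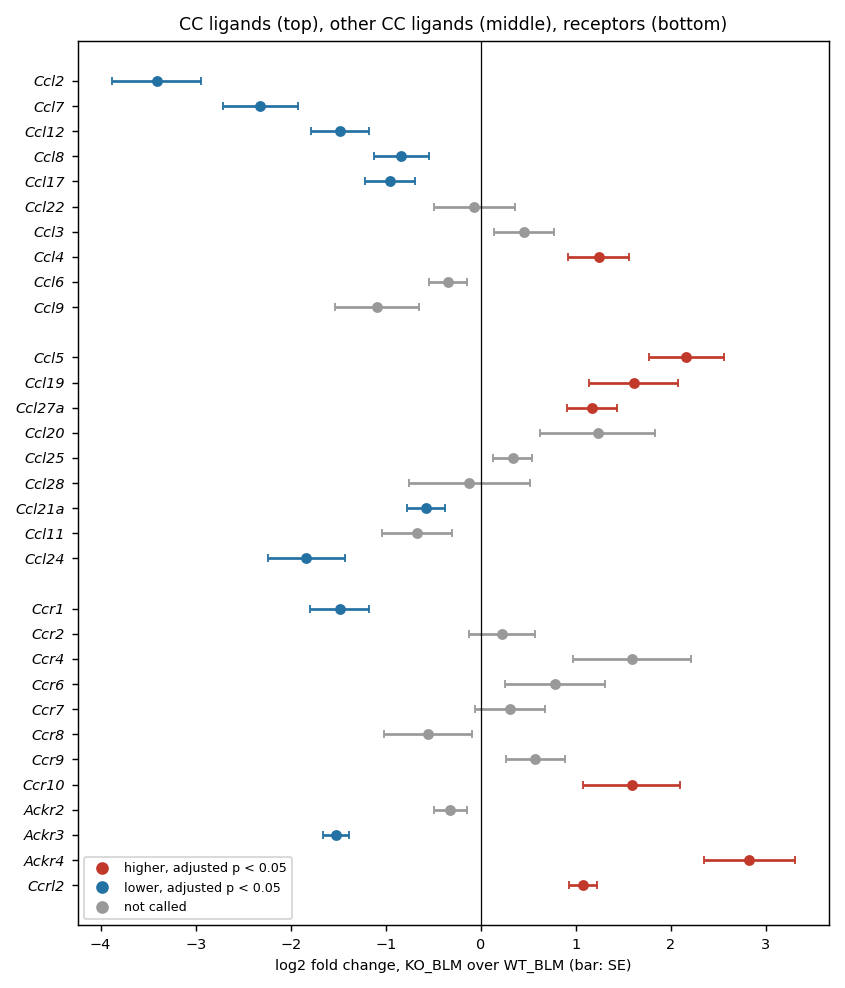
Log2 fold change of KO_BLM over WT_BLM for the 10 ligands (top), the 9 other tested CC ligands (middle) and 12 receptor genes (bottom), with SE bars; blue marks genes lower and red genes higher at an edgeR adjusted p under 0.05. Ccl2 lies at −3.41, Ccl5 at 2.16, Ccr1 at −1.49 and Ccr2, in grey, at 0.23.

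Genes upstream of the ligands were mixed. Among 18 tested inflammatory inducers and NF-kB genes 6 fell and 3 rose, with a median log2 fold change of −0.21. Tnfrsf1a, the main TNF receptor, fell 1.62-fold (−0.69, SE 0.07, adjusted p = 0.000114 by edgeR), the interleukin-1 receptor Il1r1 fell 1.95-fold, the NF-kB subunit gene Relb fell 1.57-fold, and Irf1, an interferon-induced factor, rose 1.71-fold. Of 10 tested genes of the IL-4 and IL-13 axis, which drives Ccl17 and Ccl22 in macrophages and dendritic cells, 3 fell and 1 rose, and the median was −0.08. Il4ra, the shared receptor chain, was at 188 to 226 CPM in KO_BLM and 440 to 602 CPM in WT_BLM (−1.33, SE 0.11, adjusted p = 4.08e-05 by edgeR). Il13ra1 fell 1.97-fold and Chil3, a chitinase-like macrophage product, 3.22-fold with WT_BLM replicate 2 among the KO_BLM values, while the alarmin Il33 rose 3.99-fold.

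Macrophage markers were mostly lower in KO_BLM, as the MCP ligands were, and the order of libraries within a group was alike only in part. Of 17 tested markers of recruited and tissue macrophages 14 fell and 0 rose, and their summed level was 2285, 2499, 5040 and 4842 CPM in the KO_BLM libraries, against 10213, 8917, 10334 and 11029 CPM in the WT_BLM libraries. Mrc1, the mannose receptor, fell 2.76-fold (log2 fold change −1.47, SE 0.20, adjusted p = 0.000622 by edgeR), Folr2 2.31-fold and arginase, Arg1, 13.3-fold. None of these markers was at 0 in any library. KO_BLM replicates 1 and 2 were the lowest libraries of this sum, as they were for Ccl6, Ccl9, Ccr1 and the summed MCP ligands. The summed MCP ligands were at 12.8, 15.2, 20.1 and 31.6 CPM in KO_BLM and 53.5, 93.4, 65.8 and 77.9 CPM in WT_BLM. WT_BLM replicate 2 was the lowest WT_BLM library of the macrophage sum, but the highest of the summed MCP ligands. The part of macrophage markers in the MCP values was not tested.

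Monocyte markers went both ways, with 6 of 12 lower and 5 higher, and a summed level of 1467 to 2222 CPM in KO_BLM and 2679 to 4008 CPM in WT_BLM. Ace (mean 1163 CPM in KO_BLM and 1797 CPM in WT_BLM) and Chil3 (430 and 1384 CPM) make up most of that sum. Chil3 is on the alveolar macrophage list as well, so the sum is no measure of monocytes alone. F13a1 fell 4.65-fold, Vcan 3.97-fold and Nr4a1 1.57-fold (edgeR adjusted p at most 0.0105 for the 3 genes). Among 12 dendritic cell markers 3 rose and 3 fell. Clec9a, of cross-presenting dendritic cells, rose 3.81-fold, whereas Fscn1 and Cacnb3, of migrating dendritic cells, fell 2.37-fold and 1.63-fold and Clec10a 1.94-fold. The summed level of this list was 267 to 300 CPM in KO_BLM and 272, 506, 356 and 199 CPM in WT_BLM replicates 1 to 4, in the same order over the WT_BLM libraries as Ccl22. That order was not particular to this list, since the summed B cell markers and the summed T and natural killer cell markers had it too. In KO_BLM the order of this sum differed from that of Ccl22. The part of dendritic cell markers in the values of Ccl17 and Ccl22 was not tested.

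Markers of the other cells that make these ligands were counted likewise. Of 12 tested T and natural killer cell markers, 10 rose and 1 fell, and their summed level was 118 to 229 CPM in KO_BLM and 30.0 to 68.9 CPM in WT_BLM. All 7 B cell markers rose. Neutrophil markers had 4 of 9 lower, alveolar macrophage markers 3 of 11 higher and 3 lower, mast cell, basophil and eosinophil markers 2 of 3 higher, fibroblast markers 6 of 8 lower and 1 higher, alveolar type 2 cell markers 7 of 8 higher, and endothelial markers 4 of 6 higher and 1 lower. Ccl3, Ccl4 and Ccl5 are products of activated T and natural killer cells as well as macrophages, and the part of lymphocyte markers in their values was not tested.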

How the data were processed

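RNA of 8 lung libraries was extracted with TRIzol and made into stranded mRNA libraries, per the labels' protocols. The authors deposited unnormalized read counts and FPKM values for each gene symbol. Per the submitters' processing notes, Trimmomatic, HTSeq, Cufflinks and DESeq were used, with no role stated, on the mm10 build. The sources used here do not name aligner, annotation or strand setting. The deposited FPKM equalled count over column total and 1 length per gene in 100% of values above 0 (relative tolerance 1e-06), so they are no second measurement. They served for levels between genes and for alternatives. Columns headed PHT2, a synonym of SLC15A3, were assigned to knockout samples through group and number.

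Counts were tested with edgeR 4.0.16 in R 4.3.3 (TMM factors, filterByExpr with a minimum count of 10 and total of 15, robust glmQLFit, quasi-likelihood F test, Benjamini-Hochberg over 14746 genes, threshold 0.05). CPM use TMM-scaled library sizes, and SE is the log2 fold change divided by the root of F. Libraries of a group differed by more than sampling noise (chi-square over its degrees of freedom 7.24 to 55.7), and each of the 8 was kept. The fit was tested on simulated data. Members and lists were chosen with earlier results of these data known. Named were all 10 members, called CC ligands and receptors, receptors of the members, up to 4 genes of smallest p from each further list (some are not reported here), and up to 3 genes most like a member (at least 1 CPM); ligands and receptors that were not called, TATAAA and the within-library ratios were added after values were seen. Alternatives were library totals alone, RLE factors, a strict filter (1 CPM in 4 libraries), no filter, DESeq2 1.42.0, voom with quality weights (limma 3.58.1), limma fits of log2(FPKM + 1), of log2(FPKM + 0.1) and after a filter of 1 FPKM, a replicate block, no robust estimation, and each library left out.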

Additional observations from a re-analysis of the deposited data

Results flagged for a closer look

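A library stood apart from the other 3 of its group, by a gap that made up most of the group's range (Dixon's test at 95%), for 4 of the 102 sets of 4 libraries examined, where chance gives about 1 in 20. Ccl4 was at 3.23 CPM in KO_BLM replicate 3. Without that library its log2 fold change was 0.996 and still called (edgeR adjusted p = 0.0336). Il33 was at 186 CPM in KO_BLM replicate 4, Ccl27a at 1.31 CPM in WT_BLM replicate 4 and Ccr10 at 0.75 CPM in WT_BLM replicate 3.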

How the results depend on the processing

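Ccl2, Ccl7, Ccl12, Ccl17 and Ccl4 kept their direction and call under all 19 alternatives, with log2 fold changes of −4.05 to −3.04, −2.79 to −1.94, −1.81 to −1.29, −1.12 to −0.65 and 0.90 to 1.45. Members called lower numbered 4 to 7 and members called higher 1. Ccl8 was not called with library totals alone (−0.75), on log2(FPKM + 1) (−0.76), on log2(FPKM + 0.1) (−0.78), with the FPKM filter (−0.76) or with the replicate block (−0.86), and ranged from −1.05 to −0.63 when 1 library was left out. By limma-voom Ccl6 (−0.59) and Ccl9 (−1.76) were called, and with 1 library left out they ranged from −0.54 to −0.22 and from −1.49 to −0.84. Ccl22 turned positive with library totals alone (0.0025), log2(FPKM + 1) with and without filter (0.22), log2(FPKM + 0.1) (0.26) and the replicate block (0.14), and ranged from −0.35 to 0.49 with 1 library left out. Ccl28 turned positive without KO_BLM replicate 2 (0.25) or 3 (0.13). The cause was not tested.

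Other CC ligands called lower numbered 1 with library totals alone, the strict filter, log2(FPKM + 1) and log2(FPKM + 0.1), 0 on log2(FPKM + 1) after the filter, and 1 to 3 with 1 library left out. Receptors called higher numbered 0 with the strict and FPKM filters, 2 with DESeq2 and the replicate block, and 0 to 3 with 1 library left out; receptors called lower numbered 2 by limma-voom. Over all genes 2216 were lower on log2(FPKM + 1) and 2005 on log2(FPKM + 1) after the filter, in place of 3061, and library totals alone gave 3789 higher and 2253 lower in place of 3057 and 3061. The replicate numbers do not pair the libraries: correlations of same-numbered deviations were 0.089, −0.0047, 0.00033 and −0.092, and 1 of 8 libraries correlated best with its own number. The block gave 2878 higher and 2824 lower genes, and under it Ackr2 (−0.35), Ccr4 (1.64) and Ccl20 (1.09) were called. Counts under about 30, as for Ccl4, Ccl24 and Ccr4, limit precision.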
